A study of Mus musculus with 24 samples.

Results

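Accessible regions of the epidermis 80 days after a healed full-thickness wound were compared with those of unwounded epidermis of the same day. The peaks of both lists were merged into 39297 regions, of the 63188 formed by all 8 lists of the study. A region held by the healed wound list and not by the unwounded list is called wound-only (7097 regions), the reverse is called unwounded-only (6341 regions), and a region with a peak of each list is called shared (25859 regions), with an overlap of 1 bp as the minimum. Each region was assigned to a protein-coding gene if one lay within 50 kb, and to the nearest of several.

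The healed wound group (2 samples) was labelled as wound-responsive progeny of epidermal stem cells, from full-thickness wounded skin of Sox9-CreER/R26-YFP mice at day 80. The unwounded group (3 samples) was labelled as epidermal stem cells from unwounded skin of Krt19-CreER/R26-YFP mice at day 80. Both came from a CD1 x C57BL/6J cross and were obtained by trypsin treatment of skin and FACS. The genotype and the wound changed together, so they cannot be told apart in this pair. The labels do not say how cells of a Sox9-CreER mouse were assigned to the epidermis, and they give neither the sort gates nor the ages of the mice. In the full study, 24 samples gave 8 lists, which also cover a full wound at day 7 (Sox9-CreER), a partial-thickness wound at days 3, 7 and 80, and unwounded epidermal and hair follicle stem cells at day 0 (all Krt19-CreER).

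The basal layer of the epidermis holds the stem cells that renew the skin surface. After an injury, epithelial stem cells next to the wound migrate, divide and switch on stress and inflammatory genes, and some chromatin that opens during repair is known to stay open after healing, which is described as wound memory. ATAC-seq maps open chromatin, because the transposase inserts sequencing adapters preferentially where DNA is not covered by nucleosomes; open regions include promoters and distal enhancers.

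Each group was deposited as 1 peak list, so there is no error between samples and no test between groups. Presence or absence of a peak is described, and shares carry exact 95% Clopper-Pearson intervals, which cover counting error only. Read depth is unknown. The healed wound list held 33573 peaks with a median width of 460 bp, and the unwounded list held 32236 peaks with a median width of 641 bp. Their weakest peaks were alike, with a −log10 p of 7.98 in the healed wound list and 7.86 in the unwounded list. The other 6 lists were kept at stricter limits, from 13.52 to 40.19, so a weak region of the day 80 pair can be missing from them for that reason. The peak names inside the list deposited for unwounded epidermis of day 0 carry the tag of a day 7 control, so the day of that list is uncertain in every value given for it; it is called day 0 here because it was deposited as such. A region within 1 kb of an end of the gene was present at 4 of 8 keratinocyte marker genes in the healed wound list and at 7 of 8 in the unwounded list; Cdh1, Itga6, Krt14 and Krt5 had one in both, and Col17a1, Itgb4 and Trp63 in the unwounded list alone. Immune cell markers had none in either list (0 of 9 genes), and of 7 endothelial markers, Flt1 had one in the healed wound list alone. Hair follicle markers had one at 4 of 8 genes in the healed wound list and at 6 of 8 in the unwounded list. Sebaceous gland markers had one at 3 of 7 genes in both lists. Dct and Mitf (melanocyte), Isl1 and Sox2 (Merkel cell), Col1a1 (fibroblast) and Acta2 (muscle) also had one in both lists.

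Regions at a gene start carry the sequence that most directly belongs to one gene, and RefSeq holds the bases upstream of it for the GRCm38.p6 build, which is mm10. A promoter was counted where its start lay in the region, which held for 341 wound-only, 357 unwounded-only and 6894 shared regions. Of these, 111 wound-only starts (32.6%, interval 27.6 to 37.8%) were held by all 3 early wound lists (full wound day 7, partial wound days 3 and 7) and not by unwounded epidermis of day 0, against 73 unwounded-only starts (20.4%, 16.4 to 25.0%). The opposite pattern, in unwounded epidermis of day 0 and in no early wound list, was found for 17 wound-only starts (4.99%, 2.93 to 7.86%) and 41 unwounded-only starts (11.5%, 8.37 to 15.3%). Among shared starts both patterns were rarer than in either class, with 297 starts of the first (4.31%) and 60 of the second (0.870%). The 4 highest-scoring promoters of the first pattern among wound-only starts are shown first, and after them 3 unwounded-only promoters of the second pattern that were also missing from the hair follicle list. They were chosen after their values had been seen. The hair follicle condition was set for the unwounded-only promoters alone: of the 4 wound-only ones, the hair follicle list held Kansl1, Rhot2 and Anp32a and did not hold Tpi1. Each line gives 250 bases that end just before the start, 5′ to 3′ on the gene's strand, and capitals mark a match to a motif named after them.
Kansl1: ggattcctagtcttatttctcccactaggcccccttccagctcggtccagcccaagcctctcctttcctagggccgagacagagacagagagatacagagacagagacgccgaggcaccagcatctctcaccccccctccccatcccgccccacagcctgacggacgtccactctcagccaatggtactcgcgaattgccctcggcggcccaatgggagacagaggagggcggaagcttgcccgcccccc
Rhot2: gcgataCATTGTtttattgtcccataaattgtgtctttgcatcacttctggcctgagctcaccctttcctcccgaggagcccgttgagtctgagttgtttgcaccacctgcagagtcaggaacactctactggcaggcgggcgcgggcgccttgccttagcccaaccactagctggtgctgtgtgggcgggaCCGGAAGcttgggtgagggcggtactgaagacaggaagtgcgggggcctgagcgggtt
Anp32a: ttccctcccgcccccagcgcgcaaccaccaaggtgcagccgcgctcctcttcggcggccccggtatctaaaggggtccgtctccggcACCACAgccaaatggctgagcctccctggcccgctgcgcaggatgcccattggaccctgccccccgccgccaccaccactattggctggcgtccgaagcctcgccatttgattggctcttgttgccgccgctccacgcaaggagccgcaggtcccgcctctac
Tpi1: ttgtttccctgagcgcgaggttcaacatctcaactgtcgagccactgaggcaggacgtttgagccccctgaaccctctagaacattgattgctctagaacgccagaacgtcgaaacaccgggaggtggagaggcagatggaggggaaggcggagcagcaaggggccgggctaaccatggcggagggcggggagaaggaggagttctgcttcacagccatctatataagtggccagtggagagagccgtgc
Slc9a3: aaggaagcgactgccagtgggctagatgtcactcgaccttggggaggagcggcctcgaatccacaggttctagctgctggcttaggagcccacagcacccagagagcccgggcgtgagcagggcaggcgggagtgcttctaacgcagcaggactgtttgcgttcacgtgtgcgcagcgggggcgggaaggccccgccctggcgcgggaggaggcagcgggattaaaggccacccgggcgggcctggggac
Irf4: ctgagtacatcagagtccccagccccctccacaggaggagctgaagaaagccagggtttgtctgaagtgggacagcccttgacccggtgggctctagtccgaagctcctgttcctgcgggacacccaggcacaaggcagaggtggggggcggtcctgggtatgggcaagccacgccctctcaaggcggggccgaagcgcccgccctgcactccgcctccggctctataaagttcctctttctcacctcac
Gabrp: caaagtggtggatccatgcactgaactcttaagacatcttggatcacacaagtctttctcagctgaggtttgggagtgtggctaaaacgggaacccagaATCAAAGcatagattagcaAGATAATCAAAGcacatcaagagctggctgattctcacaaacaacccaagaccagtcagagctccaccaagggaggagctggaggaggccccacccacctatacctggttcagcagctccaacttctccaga

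Kansl1 encodes a subunit of a histone acetyltransferase complex, Rhot2 a GTPase of the outer mitochondrial membrane, Anp32a an acidic nuclear phosphoprotein, and Tpi1 the glycolytic enzyme triosephosphate isomerase. Their promoters lie at chr11:104469444-104469693 (minus strand), chr17:25844526-25844775 (minus), chr9:62341093-62341342 (plus) and chr6:124814159-124814408 (minus). The regions over them scored 326, 223, 215 and 194 in the healed wound list, where the median peak scored 159. Slc9a3 encodes a sodium-proton exchanger, Irf4 an interferon regulatory factor of lymphoid cells and Gabrp a subunit of the GABA-A receptor. Their promoters lie at chr13:74121163-74121412 (plus), chr13:30748983-30749232 (plus) and chr11:33578958-33579207 (minus), under peaks that scored 152, 148 and 144 in the unwounded list, where the median was also 159. Of the 111 wound-only starts of the first pattern, 12 lay in the upper 50% of their list, and of the 41 unwounded-only starts of the second pattern, 0 did.

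Motifs were searched on both strands as short letter strings in the same 250 bases, and the share of all 21238 promoters with a match follows each. AP-1 was searched as TGANTCA (6.14%) and the zinc finger factors of the GATA family as AGATAA (8.81%). The TEAD string was GGAATG (11.7%), that of the SOX family ACAATG (9.36%), and that of the RUNX family TGTGGT (12.4%). For KLF factors the letters were GGGTGTG (7.08%), for STAT factors TTCNNNGAA (6.57%) and for grainyhead factors AACCGGTT (0.141%). For LHX homeobox factors they were TAATTA (4.31%), for TCF factors ATCAAAG (2.83%), for forkhead factors TGTTTAC (2.61%) and for ETS factors CCGGAAG (8.99%). The p63 motif was searched as a pair of CATG spaced by 6 bases (0.419%). Rhot2 held a SOX and an ETS match and Anp32a a RUNX match. Gabrp held 1 GATA and 2 TCF matches, of which the GATA match and the TCF match next to it overlap. The AP-1 string was found at 5.87% of wound-only regions with a start (20 of 341, interval 3.62 to 8.91%). It was at 6.44% of such unwounded-only regions (23 of 357) and 4.26% of such shared regions. These shares count regions with a start, while the 21238 are promoters, of which a region can hold several. The ETS string was in 10.6% at wound-only regions (7.50 to 14.3%), 7.84% at unwounded-only regions and 16.0% at shared regions. No motif had intervals that separated wound-only from unwounded-only regions with a start. Most regions of both classes lie away from gene starts, and sequence there was not used here.

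Wound-only regions made up 18.1% of all regions of the pair and unwounded-only regions 16.1%. Which class was larger depended on the length of the lists: with both cut to 32236 peaks by score there were 6297 wound-only and 6850 unwounded-only regions. Both classes were weak within their own list. The median score of a wound-only peak was 89, at the 21.3 percentile of the healed wound list, and 932 of the 7097 lay in its upper 50%. An unwounded-only peak had a median score of 84, at the 18.9 percentile of the unwounded list, and 594 of 6341 lay in its upper 50%. Shared peaks stood at a median percentile of 58.9 in the healed wound list and 59.0 in the unwounded list. The scores, and the fold enrichments used further on, are the authors' own and rank peaks only within a list. Few regions were close to the 1 bp limit: 8 wound-only and 6 unwounded-only regions had a peak of the other list within 100 bp.

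Differing regions were mostly distal. A start or end of a gene lay within 1 kb of 10.7% of wound-only regions (10.0 to 11.5%) and 11.7% of unwounded-only regions (11.0 to 12.6%), against 33.3% of shared regions. Positions inside a gene and over 1 kb from its ends held 44.3% of wound-only and 43.4% of unwounded-only regions. No gene lay within 50 kb of 15.9% of wound-only and 18.7% of unwounded-only regions. Exons, introns and UTRs were not analysed here.

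The wound-only regions were those of the early wound far more often than the unwounded-only regions were. The full wound list of day 7 held 59.6% of wound-only regions (4230 of 7097, interval 58.5 to 60.7%) and 27.8% of unwounded-only regions (1761 of 6341, 26.7 to 28.9%). The partial-thickness lists, whose mice had the genotype of the unwounded group and whose cells were labelled as hair follicle progeny, gave a like contrast. The list of day 3 held 54.7% of wound-only and 28.4% of unwounded-only regions, and that of day 7 held 56.0% of wound-only and 30.4% of unwounded-only regions. The direction was the opposite in lists without a recent wound. Unwounded epidermis of day 0 held 34.6% of wound-only regions (33.5 to 35.8%) and 43.8% of unwounded-only regions (42.6 to 45.0%). The partial wound list of day 80 held 42.6% of wound-only and 48.8% of unwounded-only regions, and the hair follicle list 22.8% of wound-only and 29.1% of unwounded-only regions. In all 6 lists the intervals of both classes were apart. Shared regions were held more often than either class in all 6. The full wound list of day 7 held 81.3% of shared regions, and the partial wound lists of days 3, 7 and 80 held 78.4, 83.3 and 91.8%. Unwounded epidermis of day 0 held 90.1% of them and the hair follicle list 66.8%.

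**Figure D1:**
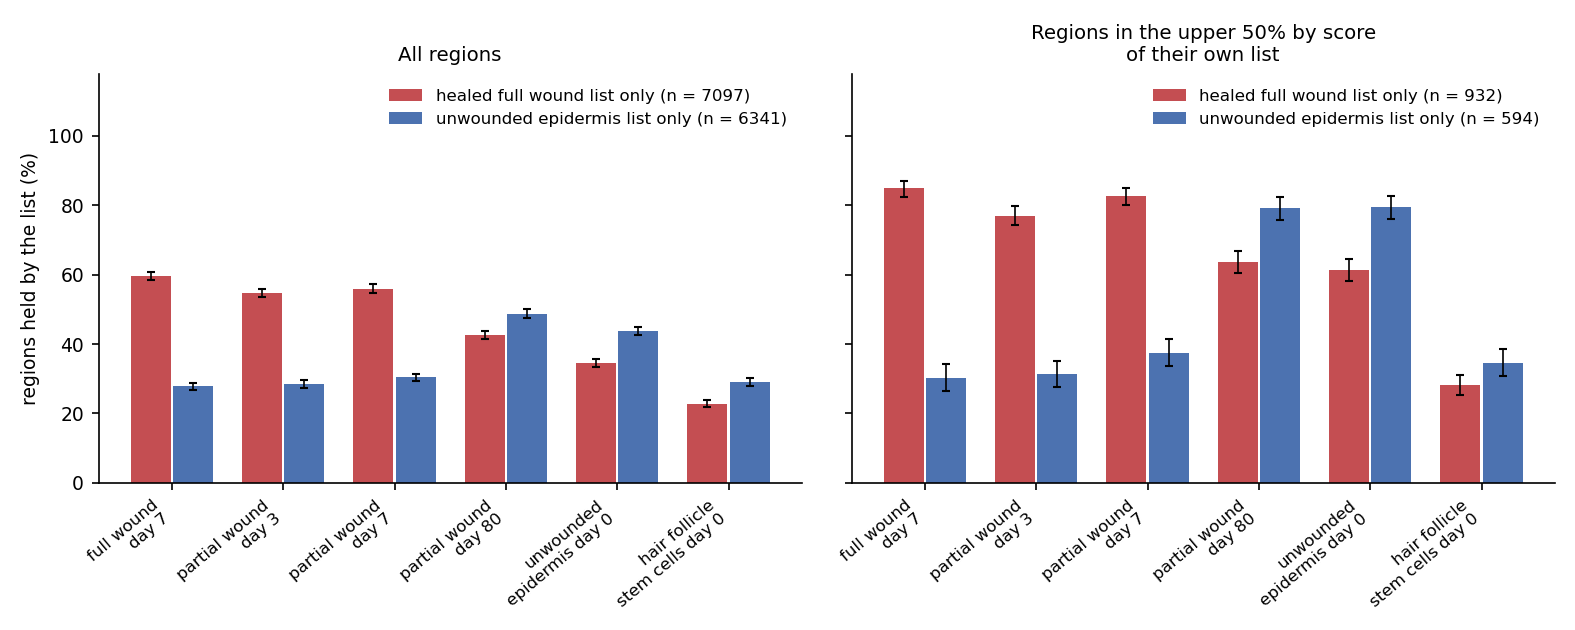
Share of regions held by each of the other 6 lists (percent, bars) with exact 95% intervals (lines), for regions of the healed full wound list only (red) and of the unwounded epidermis list only (blue), over all regions (left) and those in the upper 50% by score (right). The red bars are the taller ones in the full wound day 7 list (59.6% against 27.8%) and both early partial wound lists, and the blue bars in the other 3.

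The contrast grew with the strength of the peak. Among regions in the upper 50% by score, the full wound list of day 7 held 84.9% of wound-only regions (791 of 932, 82.4 to 87.1%) and 30.3% of unwounded-only regions (180 of 594, 26.6 to 34.2%). Unwounded epidermis of day 0 held 61.3% of these strong wound-only regions and 79.5% of the unwounded-only ones. Over 5 classes of percentile, from the weakest to the strongest, the share of wound-only regions held by the full wound list of day 7 was 42.8, 53.6, 69.0, 84.0 and 90.0%. The share of unwounded-only regions held by it was 25.1, 27.6, 29.5, 30.5 and 28.6%, so it hardly moved with strength. In the list of unwounded epidermis of day 0 both classes were held more often with strength, up to 75.4% of the strongest wound-only regions (98 of 130) and 98.2% of the strongest unwounded-only regions (55 of 56).

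**Figure D2:**
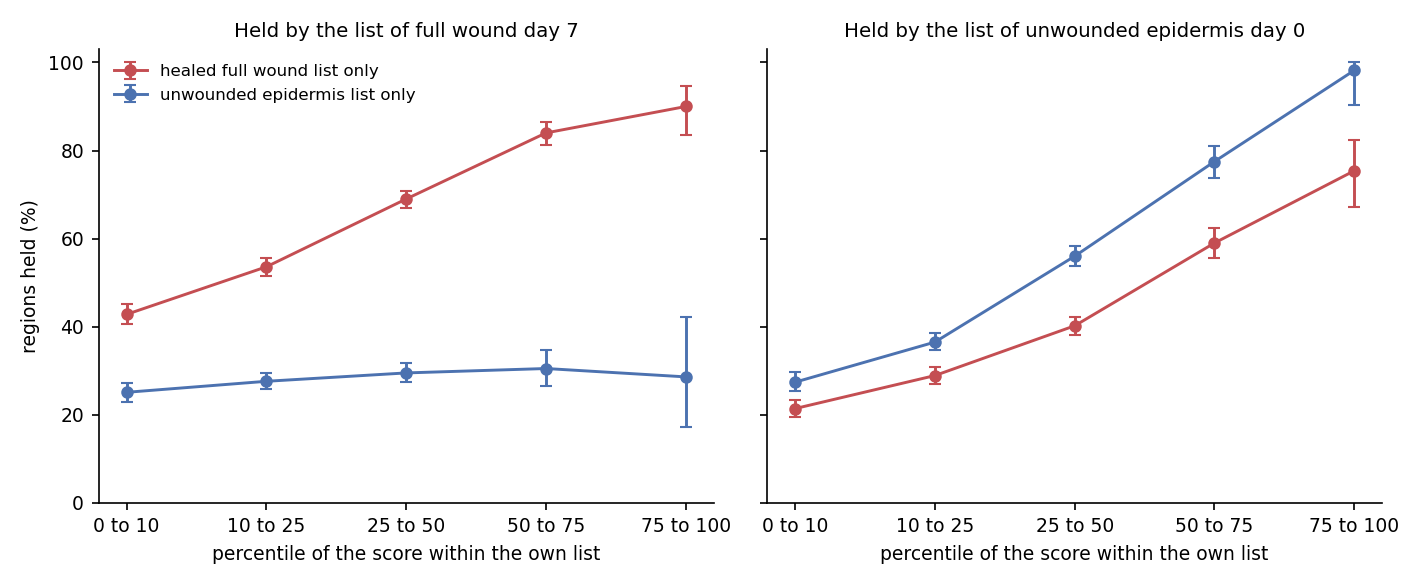
Share of regions (percent) held by the list of full wound day 7 (left) and of unwounded epidermis day 0 (right), by the percentile of their score within their own list, with exact 95% intervals; red, healed full wound list only, and blue, unwounded epidermis list only. The red line climbs to 90.0% in the left panel while the blue line stays between 25.1 and 30.5%.

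A strong wound-only region was often one that uninjured skin of day 0 also had. Of the 932 strong wound-only regions, 493 (52.9%) were in both the full wound list of day 7 and the unwounded list of day 0, and 298 (32.0%) were in the full wound list of day 7 and not in the unwounded list of day 0. Of the 594 strong unwounded-only regions, 325 (54.7%) were in unwounded epidermis of day 0 and not in the full wound list of day 7. The 10 highest-scoring wound-only regions showed the same: 9 were in the full wound list of day 7, and 9 were in unwounded epidermis of day 0. The exception was a region 32920 bp from Pum2, which encodes an RNA-binding translational repressor (chr12:8640756-8641172). It had the highest score of the class, 666, and was in no other list. The 10 highest-scoring unwounded-only regions were all in unwounded epidermis of day 0 and 9 were in the partial wound list of day 80, while 2 were in the full wound list of day 7. Among these was a region 7116 bp from Plau, the urokinase gene, at chr14:20850504-20851202 with a score of 407, held by all 6 other lists.

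Regions of the early wound lists that no list of day 0 held were also unequal between the classes. The unwounded-only ones among them are by definition in unwounded epidermis of day 80. Held by all 3 early wound lists and by neither unwounded list of day 0 were 1190 wound-only regions (16.8%, 15.9 to 17.7%) and 226 unwounded-only regions (3.56%, 3.12 to 4.05%). Among the 1190, the strongest lay inside Eef2k, which encodes the kinase of translation elongation factor 2 (chr7:120897175-120897629, score 398). Others among the 10 strongest lay inside Nav1, Cntnap5b and Ddah1, 4127 bp from Il20, a cytokine of the interleukin-10 family that acts on keratinocytes (chr1:130902513-130902858, score 350), and 20156 bp from Ccl2, a chemokine that attracts monocytes (chr11:82014993-82015421, score 309). The genes with the most such regions were Nav1, Insyn1, Atxn1, Lrig2 and Hivep3, with 3 each. Another 73 genes had 2, among them Cdh1 (E-cadherin), Smad3 (a TGF-beta effector), Met (the receptor of hepatocyte growth factor), Has2 (a hyaluronan synthase), Jag2 (a Notch ligand) and Cdc42 (a GTPase of cell polarity). Met also had 2 unwounded-only regions of the pattern described next, with a best score of 207 in the unwounded list, against 126 for its wound-only regions in the healed wound list. These genes were picked after the pattern was seen.

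Another pattern was presence in unwounded epidermis of day 0 and in the partial wound list of day 80 but in no early wound list. It is not the mirror of the one before, since the hair follicle list was not used in it. It was found for 207 wound-only regions (2.92%) and 807 unwounded-only regions (12.7%, 11.9 to 13.6%). Pkib, Tenm4, Adgrv1, Sema5a, Trpm3 and Fhit had 3 such unwounded-only regions each, and Itga6, the integrin subunit of hemidesmosomes, Scnn1g, a subunit of the epithelial sodium channel, and Pik3r1, the regulatory subunit of phosphoinositide 3-kinase, had 2. Itga6 also had 3 wound-only regions and 4 shared ones. Of the 10 strongest unwounded-only regions of this pattern, 8 lay over 50 kb from any protein-coding gene. No other list held 15.7% of wound-only regions (1116) and 21.8% of unwounded-only regions (1384), which were weak: 32 wound-only and 31 unwounded-only ones were in the upper 50% of their list.

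A gene was assigned to 33773 regions, of which 17.7% were wound-only and 15.3% unwounded-only. Of the 13118 genes with a region, 4225 (32.2%) had at least 1 wound-only region and 3534 (26.9%) at least 1 unwounded-only region. Wound-only regions were the more numerous at 3203 genes (24.4%) and unwounded-only regions at 2501 (19.1%); 7414 genes had as many of one as of the other, and the median difference was 0. With at least 3 wound-only and no unwounded-only region there were 131 genes (0.999%), and in the reverse 123 (0.938%). The 466 wound-only regions of those 131 genes were held by the full wound list of day 7 in 62.2% (57.7 to 66.7%), near the 59.6% of the class, and the 442 unwounded-only regions of the 123 genes in 25.8% (21.8 to 30.1%). Long genes gather more regions, so counts are not a measure of activity.

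Ltbp1 had the most one-sided set of regions. It encodes a latent TGF-beta binding protein, which holds inactive TGF-beta in the extracellular matrix (gene ID 268977, chr17:75005480-75392512, 387 kb). It had 10 wound-only regions, no unwounded-only region and 1 shared region. Of the 10, the partial wound list of day 7 held 10, the full wound list of day 7 and the partial wound list of day 3 held 9 each, the hair follicle list 7, and the partial wound list of day 80 and unwounded epidermis of day 0 held 2 each. Wound-only scores ran from 57 to 238, with 4 of 10 in the upper 50% of their list. RefSeq gives the gene a start at its lower end and another inside it, and a wound-only region lay over each (chr17:75005043-75005547, score 102, and chr17:75178106-75178867, score 66). Inside the gene there were 11 peaks in the healed full wound list, against 1 in unwounded epidermis of day 80. The other lists had 15 (full wound day 7), 16, 12 and 3 (partial wound days 3, 7 and 80), 9 (hair follicle) and 3 (unwounded epidermis day 0). The 3 early wound lists had the most, and the partial wound of day 80 had as many as unwounded epidermis of day 0.

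Trpm3, a gene for a heat-activated cation channel (gene ID 226025, chr19:22137797-22995410, 858 kb), had the most unwounded-only regions. It had 1 wound-only, 10 unwounded-only and 7 shared regions. None of its 10 unwounded-only regions was in an early wound list, 5 were in unwounded epidermis of day 0, 5 in the partial wound list of day 80 and 3 in the hair follicle list. All 10 scored below their list's median, from 60 to 142, while the single wound-only region scored 177, so among strong regions the balance of Trpm3 turns round to 1 wound-only and 0 unwounded-only. Inside the gene the healed full wound list had 7 peaks, against 16 in unwounded epidermis of day 80; the day 7 full wound had 4 and unwounded epidermis of day 0 had 14.

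**Figure D3:**
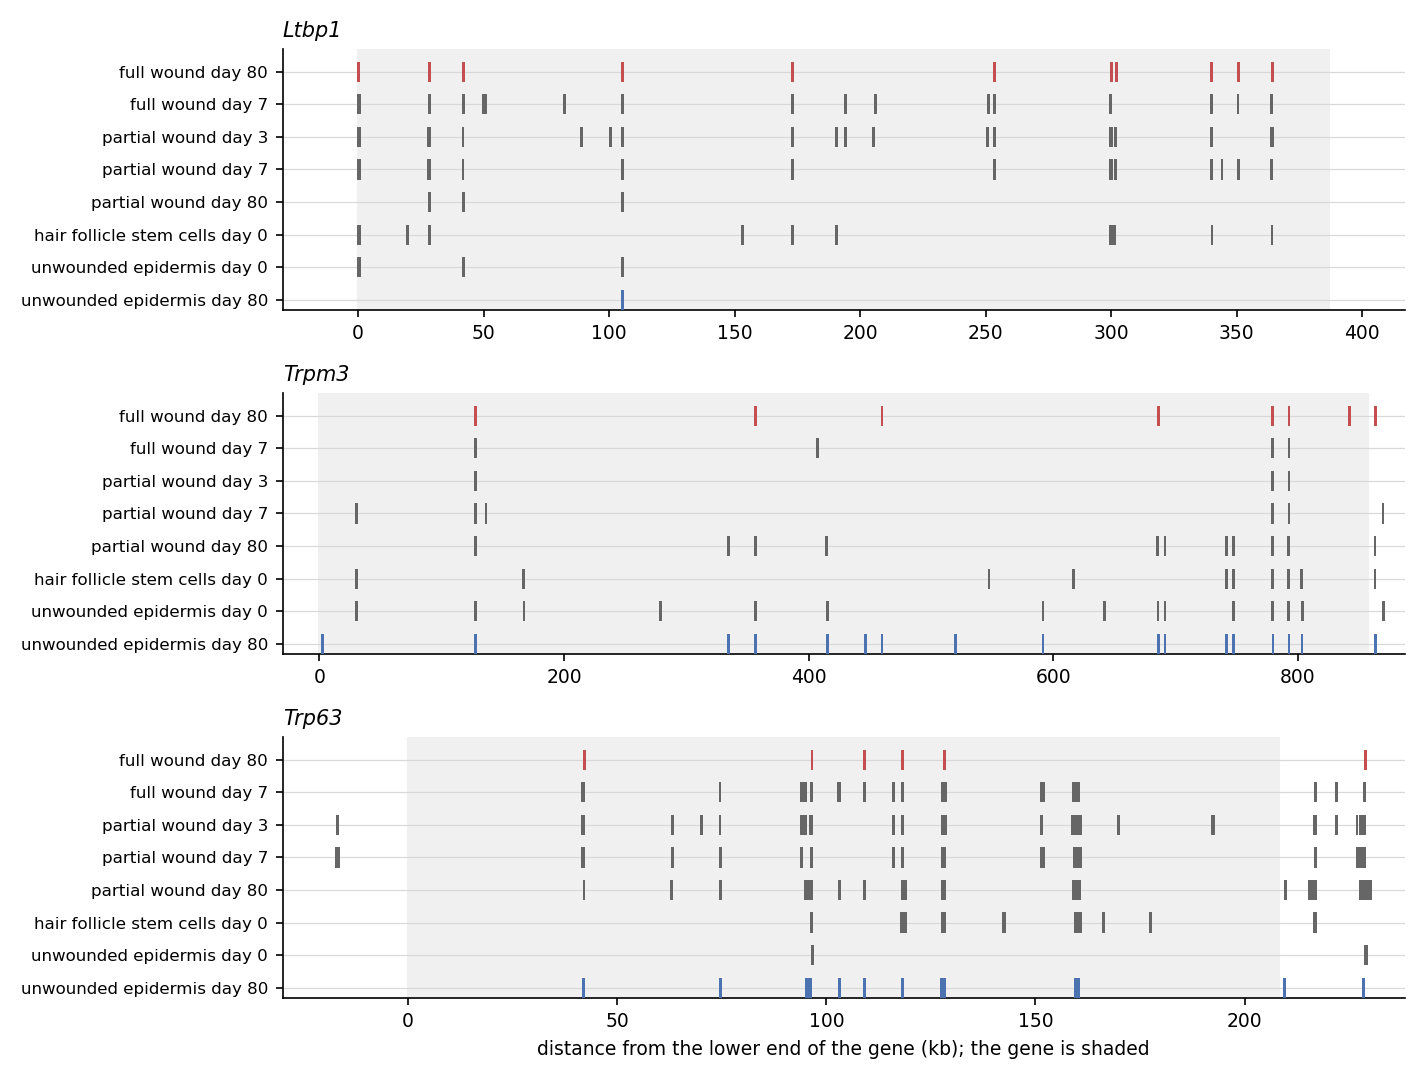
Peaks of the 8 lists (1 row each) at Ltbp1, Trpm3 and Trp63, by distance in kb from the end of the gene with the lower coordinate; the gene is shaded, and bars narrower than the drawing allows were widened. At Ltbp1 the healed full wound (top row, red) has 11 peaks in the gene. The early wound rows have 12 to 16 there, the hair follicle row 9 and unwounded epidermis of day 80 (bottom row, blue) 1. At Trpm3 the healed full wound has 7 peaks against 16 in the bottom row, and at Trp63 it has 5 against 9.

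Numbers after a gene symbol count its wound-only, unwounded-only and shared regions. Other genes rich in wound-only regions were Sdk2, an adhesion molecule of the immunoglobulin superfamily (8 wound-only, 0 unwounded-only, 2 shared), Robo2, a receptor for Slit proteins (8, 1 and 7), Nrg1, a ligand of ErbB receptors (8, 2 and 9), and Smyd3, a lysine methyltransferase (8, 1 and 9). Macrod2 had the most wound-only regions of any gene, 11, but also 8 unwounded-only and 25 shared ones over 1998 kb. Of the Sdk2 regions, the full wound list of day 7 held 6 of 8 and unwounded epidermis of day 0 held 2 of 8. Of the Dip2b regions (8, 3 and 5), 7 of 8 wound-only ones were in the full wound list of day 7, and of the Nrg1 regions 4 of 8.

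Genes rich in unwounded-only regions included Sema5a, a semaphorin guidance cue (1 wound-only, 9 unwounded-only, 11 shared), Lpp, a LIM protein of focal adhesions (3, 9 and 6), Slit3, a Robo ligand (6, 9 and 8), Kank1, a cytoskeletal adaptor (3, 8 and 11), Rora, a nuclear receptor (4, 8 and 15), and Tenm4, a teneurin (3, 8 and 16). Of the unwounded-only regions, the full wound list of day 7 held 0 of 9 at Sema5a, 0 of 8 at Tenm4 and 0 of 8 at Adamtsl1, against 4 of 9 at Lpp. Unwounded epidermis of day 0 held 6 of 9 at Sema5a, 4 of 8 at Tenm4 and 4 of 8 at Adamtsl1.

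**Figure D4:**
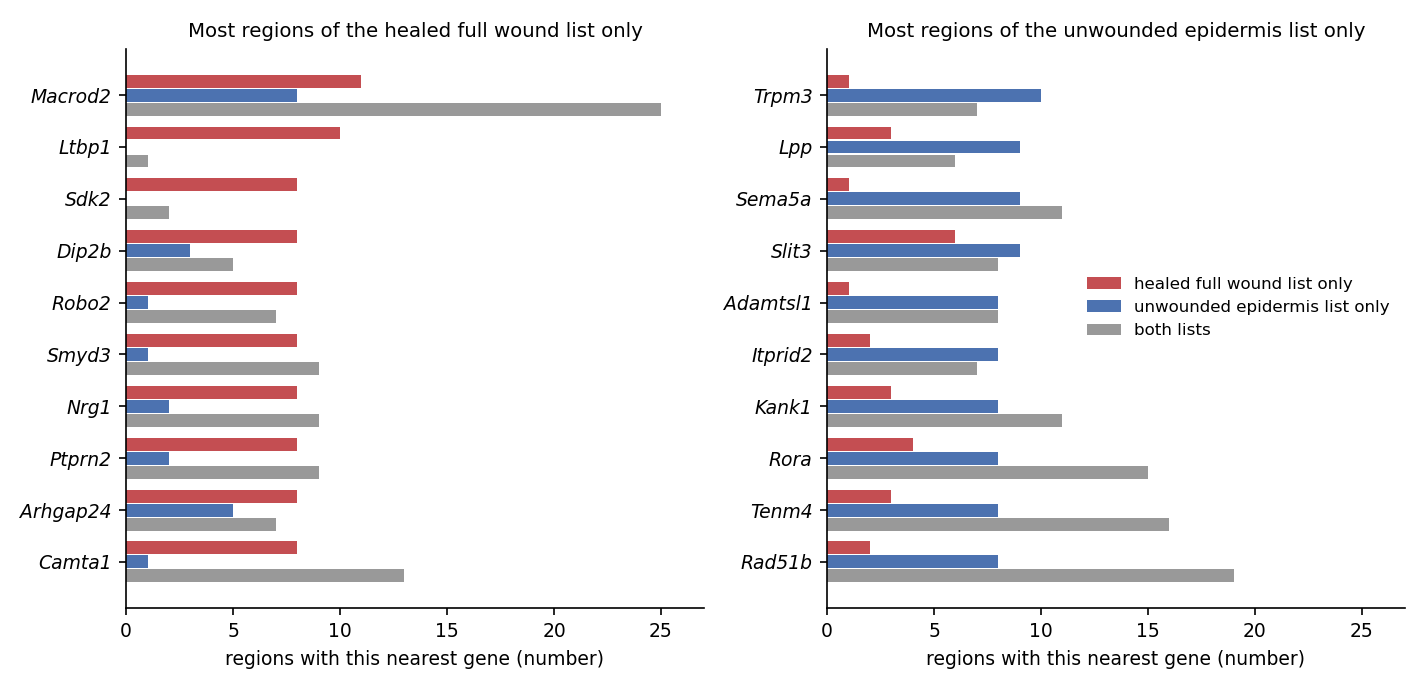
Number of regions by class for the 10 genes with the most regions of the healed full wound list only (left) and the 10 with the most of the unwounded epidermis list only (right); red, healed full wound list only, blue, unwounded epidermis list only, grey, both. Ltbp1 and Sdk2 have no blue bar, and Trpm3 has 1 red against 10 blue regions.

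Of the 131 one-sided genes, 18 had no region of the unwounded list at all, and of the 123, 5 had none of the healed wound list. Dlk1, an imprinted Notch-family ligand, had 4 wound-only regions and no other. Aox3, Cntnap5b, Cyp7b1, Ednra (the endothelin A receptor) and Eya4 had 3 each. All 3 at Aox3, Cntnap5b, Cyp7b1 and Ednra were in the full wound list of day 7, and at Cyp7b1 and Ednra none was in unwounded epidermis of day 0. That list held all 3 at Aox3 and 1 at Cntnap5b. None of the Dlk1 regions was in the full wound list of day 7. In the reverse, Arhgap31 and Gm46617 had 4 unwounded-only regions and no other, and Gas6, the ligand of TAM receptors, Kctd14 and Septin10 had 3.

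AP-1 factors are immediate stress genes whose proteins open chromatin in wounds. The list of AP-1 and stress factors has 14 genes and also holds Egr1 and Myc, which are not AP-1 factors. Near its genes there were 16 wound-only, 5 unwounded-only and 37 shared regions, so that 27.6% were wound-only and 8.62% unwounded-only. Over all regions with a gene, 17.7% were wound-only and 15.3% unwounded-only. Wound-only regions were the more numerous at 8 of the 14 genes and unwounded-only regions at 2, with a median difference of 1. Fos had 4 wound-only, 1 unwounded-only and 4 shared regions, Fosl2 2, 0 and 4, Jun 2, 1 and 4, and Myc 2, 0 and 6. Atf3 went the other way, with 0, 2 and 6, and Fosl1 had 1 shared region only. Within a window of 10 kb instead of 50 kb, Fos had 1 wound-only region. Of the 4 in the wider window, 3 were in the full wound list of day 7, and 3 in unwounded epidermis of day 0.

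Terminal differentiation genes had 14 wound-only and 5 unwounded-only regions of 55 (25.5 and 9.09%). They were led by the transcription factor genes Grhl3 (3, 0 and 7), Klf4 (2, 0 and 3) and Ovol1 (2, 0 and 1). None of the differing regions of this list was in the upper 50% of its own list by score. Hypoxia and glycolysis genes had 9 wound-only and 2 unwounded-only regions of 57. These were 15.8 and 3.51%, both below the shares over all regions with a gene. Hk2, a hexokinase, and Egln3, an oxygen-sensing hydroxylase, each had 2 wound-only regions and no unwounded-only region. No gene of the 12 had more unwounded-only than wound-only regions. EGF and FGF genes had 17 wound-only and 10 unwounded-only regions of 68 (25.0 and 14.7%). Among these, Nrg1 gave 8 wound-only and 2 unwounded-only and Egfr 5 wound-only and 3 unwounded-only. In the upper 50% by score this list had 0 wound-only regions and 1 unwounded-only region, so its order turned. Proliferation genes had 8 wound-only and 4 unwounded-only regions of 44. These were 18.2 and 9.09%, against 17.7 and 15.3% over all regions with a gene.

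Genes of the wound epithelium had 19 wound-only and 14 unwounded-only regions of 68. These were 27.9 and 20.6%, both above the 17.7 and 15.3% over all regions with a gene. Krt6a, a keratin induced by injury, had a single region, which was wound-only, in the upper 50% of its list, and held by all 3 early wound lists and the hair follicle list but not by unwounded epidermis of day 0 or the partial wound of day 80. Reads of Krt6a and its near-identical neighbour Krt6b can be hard to place, and Krt6b had no region. Krt16 and Krt17 had 1 and 2 shared regions only. Itgav, an integrin subunit, had 3 wound-only and 2 unwounded-only regions, and Cd44, the hyaluronan receptor, had 2 wound-only and 5 unwounded-only. Inflammation genes had 24 wound-only and 16 unwounded-only regions of 121. These were 19.8 and 13.2%, near the 17.7 and 15.3% over all regions with a gene. Nfkbia, the NF-kB inhibitor, had 4 wound-only, 1 unwounded-only and 4 shared regions, and all 4 wound-only ones were in both early partial wound lists. Aim2, a cytosolic DNA sensor, had 3, 0 and 2. The full wound list of day 7 held 1 of these 3, and unwounded epidermis of day 0 held another 1. Il1r1, the interleukin-1 receptor, had 0, 2 and 3, and Irf1, a factor of the interferon list, 0, 3 and 4.

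Epidermal stem cell and fate genes had 16 wound-only and 21 unwounded-only regions of 80. Their wound-only share lay a little above the 17.7% over all regions with a gene, and their unwounded-only share of 26.2% lay above the 15.3%. Trp63, the p63 factor that maintains the basal layer (0, 5 and 6), and Tfap2c, an AP-2 factor (0, 4 and 5), had the most unwounded-only regions. Sox6 (3, 3 and 6) and Slc1a3 (4, 3 and 2) came next, with at least as many wound-only ones. Gata3 had 0, 2 and 6, and Tfap2a 3, 2 and 5. Grhl2, an epithelial factor, had 3, 1 and 5, and its 3 wound-only regions were all in the full wound list of day 7 and none in unwounded epidermis of day 0. Krt14 had 1, 0 and 2, Krt5 1, 1 and 1, and Klf5 1, 0 and 2. By number of genes the order was the other one, with more wound-only regions at 5 genes and more unwounded-only regions at 3 of 12.

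The unwounded-only regions of Trp63 had another history than those of Trpm3. Of its 5, the full wound list of day 7 held 4, the partial wound lists of days 3, 7 and 80 held 3, 3 and 5, the hair follicle list 2, and unwounded epidermis of day 0 none. The gene (gene ID 22061, chr16:25683763-25892088, 208 kb) had 5 peaks in the healed full wound list, against 9 in unwounded epidermis of day 80, 11 in the full wound of day 7 and 1 in unwounded epidermis of day 0. The strongest unwounded-only region of Trp63 scored 255 (chr16:25758194-25758564) and the other 4 scored 55 to 70.

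Notch genes had 11 wound-only and 18 unwounded-only regions of 69 (15.9 and 26.1%). The coactivator genes Maml2 (0, 4 and 7) and Maml3 (1, 5 and 11) gave 4 and 5 of the 18. The receptor gene Notch3 had 2, 0 and 1, and the target gene Hes1 2, 3 and 3. None of the differing Notch regions was in the upper 50% of its own list. Interferon response genes had 3 wound-only and 6 unwounded-only regions of 31 (9.68 and 19.4%). This order turned by a single region in the upper 50% by score and in a window of 10 kb. Near BMP and TGF-beta genes there were 20 wound-only and 13 unwounded-only regions of 128. These shares of 15.6 and 10.2% lay below the 17.7 and 15.3% over all regions with a gene. Of this last list, Bmp4 had 0, 2 and 5, Smad3 3, 1 and 7, and Tgfb2 3, 2 and 6. Wound-only and unwounded-only regions each numbered 21 of the 115 near Wnt and hedgehog genes (18.3% each). Near axon guidance and adhesion genes each numbered 50 of 201. That share of 24.9% lay above both shares over all regions with a gene. Stat3 and gp130 genes had 9 wound-only and 10 unwounded-only regions of 62 (14.5 and 16.1%). Hippo genes had 5 wound-only and 6 unwounded-only of 53 (9.43 and 11.3%). Housekeeping genes had 2 wound-only and 3 unwounded-only of 23 (8.70 and 13.0%). All 3 of these orders turned in at least 1 other setting. Basal adhesion genes had 15 wound-only and 10 unwounded-only regions of 66 (22.7 and 15.2%). Itga3, an integrin subunit for laminin, stood at 3, 0 and 2 and Lama3, a laminin chain, at 0, 2 and 6.

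**Figure D5:**
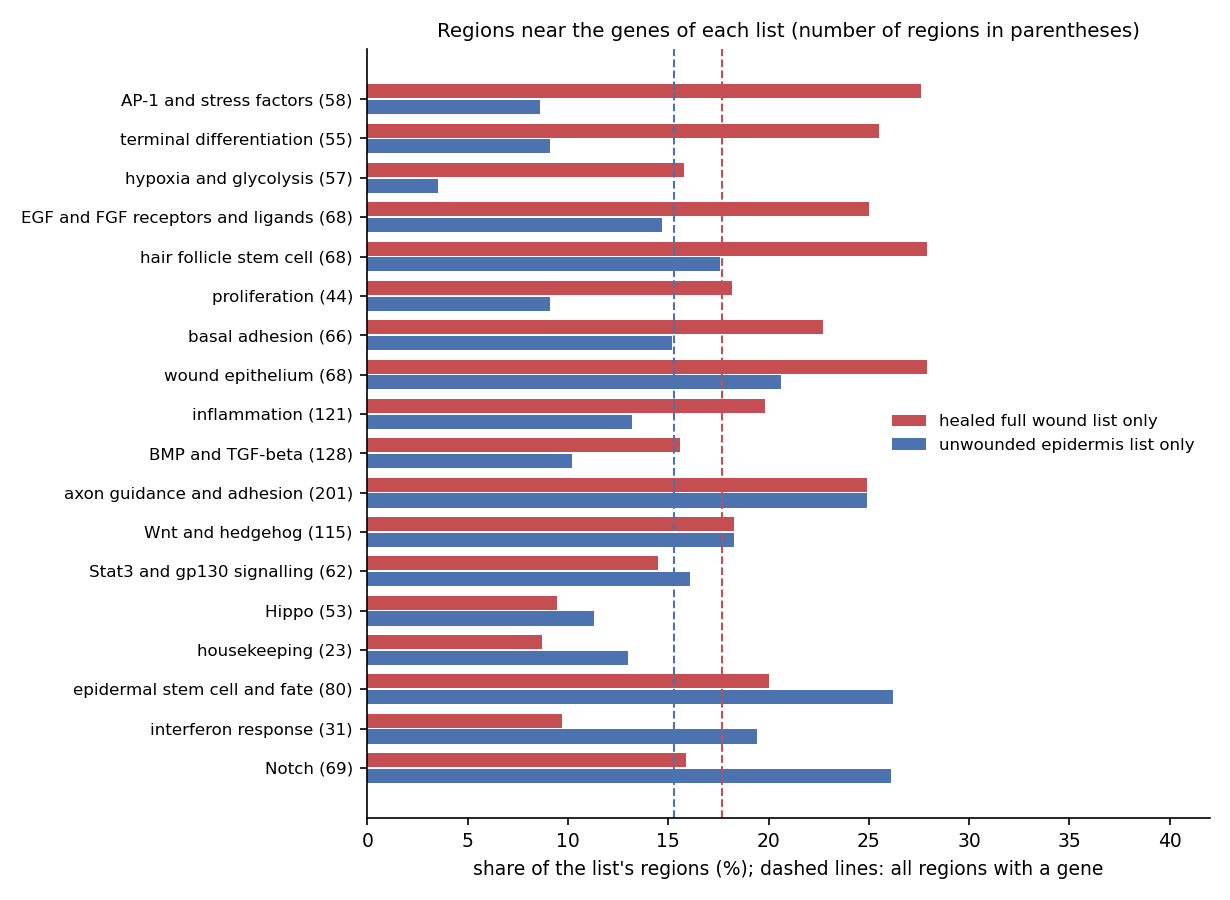
Share of the regions near the genes of each list (percent) that were in the healed full wound list only (red) or the unwounded epidermis list only (blue), with the number of regions in parentheses and dashed lines at the shares over all regions with a gene (17.7% and 15.3%). AP-1 and stress factors stand at the top with 27.6% against 8.62%, and Notch at the bottom with 15.9% against 26.1%.

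Hair follicle stem cell genes had 19 wound-only and 12 unwounded-only regions of 68, with 6 wound-only and 3 unwounded-only at Nfatc1, a factor of quiescent follicle stem cells. The shares of the list were 27.9 and 17.6%, against 17.7 and 15.3% over all regions with a gene. In the upper 50% by score the order turned, with 1 wound-only and 2 unwounded-only regions. Of the 6 wound-only Nfatc1 regions, the hair follicle list held 1 and the full wound list of day 7 held 2. Sox9, whose promoter drives CreER in the wounded mice, had 1 wound-only region, held by all 6 other lists, and 1 shared region. Lgr5 had no region in either list, and Cd34 had 2 shared ones. Endothelial markers had 9 wound-only and 1 unwounded-only region of 20, from 3 of the 7 genes, while Cdh5, Kdr, Tek and Emcn had no region in either list. Fibroblast markers had 0 wound-only and 3 unwounded-only regions of 9 (0 and 33.3%), and immune markers 2 of each class among 6 (33.3% each). Keratinocyte markers had 10 wound-only and 11 unwounded-only regions of 45, the shorter list of hair follicle markers 11 wound-only and 7 unwounded-only of 31, and sebaceous gland markers 4 wound-only and 1 unwounded-only of 10. Melanocyte markers had 3 wound-only and 2 unwounded-only regions of 13, muscle markers 0 wound-only and 1 unwounded-only of 5, and Merkel cell markers 1 wound-only and 0 unwounded-only of 3. The part of other cell types in the differences was not tested.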

How the data were processed

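Data were 8 deposited narrowPeak lists, 1 per group. Per the submitters' processing notes, which state neither role nor order, the build was mm10 and the tools were MACS2 2.1.1.20160309, bedtools 2.29.2, Picard and Bowtie. No source used here says whether reads were pooled before peak calling. The score deposited with each peak equals 10 times its −log10 q. The deposited −log10 p and −log10 q and the fold enrichment (a ratio) are the authors' values and were used only within a list. Of the numbered peaks, the authors' lists kept 82.5% (healed full wound) and 79.6% (unwounded epidermis); per-list cut-offs can drop weak regions.

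The lists of day 80 were merged with Python 3.11.15, pandas 2.3.3 and numpy 2.4.6, and the classing was tested on simulated data. Intervals came from scipy 1.17.1. Genes were 21900 protein-coding RefSeq genes of GRCm38.p6, of which the nearest within 50 kb was taken (distance 0 inside a gene). Promoter sequences, also RefSeq GRCm38.p6, replaced a planned motif search over all regions, since no genome was used here. Named genes followed a rule: for each class the 10 richest in regions, those of the 10 highest-scoring regions, up to 4 per gene list by the largest difference, 6 one-sided genes, 6 starts, and 26 fixed genes; genes of patterns over the other lists were picked after values were seen. The regions and the 18 gene and 9 marker lists were chosen with earlier results of these data known. With 1 list per group no test was run.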

Additional observations from a re-analysis of the deposited data

How the results depend on the processing

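No paired analysis was possible because each group has 1 peak list, and for the same reason no sample could be left out in turn. The main values were 7097 wound-only and 6341 unwounded-only regions, of which 59.6% of wound-only and 27.8% of unwounded-only ones were held by the full wound list of day 7, and 10.7% of wound-only and 11.7% of unwounded-only lay within 1 kb of a gene end. With each peak replaced by 250 bp either side of its summit, 62.3% of wound-only and 31.1% of unwounded-only regions were held, and 13.5% of wound-only and 13.1% of unwounded-only lay near an end, so the order of these last shares turned. With lists of equal length, 62.3% of wound-only and 29.0% of unwounded-only regions were held, and the order of the counts turned, with 6297 wound-only and 6850 unwounded-only. With the upper 50% by score, there were 932 wound-only regions (84.9% held, 7.83% near an end) and 594 unwounded-only (30.3% and 9.76%). Requiring an overlap of 50% of the shorter peak, merging peaks up to 500 bp apart and using autosomes alone moved neither total by over 1.5 times and no such share out of its interval. Among the named genes, merging moved 3 wound-only counts and 2 differences, and the 50% overlap moved 1 unwounded-only count; among the gene lists, merging moved 1 unwounded-only count. Of 144 differences of wound-only minus unwounded-only regions over 18 gene lists and 8 settings, 10 changed sign. With the upper 50% by score these were 1 (Stat3 and gp130), 1 (Hippo), 1 (interferon), -1 (hair follicle stem cell) and -1 (EGF and FGF); with fixed widths 1 each for Stat3 and gp130, Hippo and housekeeping; with a gene window of 10 kb 1 for interferon, and of 100 kb 1 for Stat3 and gp130. The difference of 11 for AP-1 and stress factors ran from 2 to 16. Among single genes, Trpm3 (1) and Arhgap24 (-1) changed sign with the upper 50% by score. Why these values moved was not tested.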

Other observations

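The balance of the classes varied along the genome. Of all regions that differed between the healed full wound and unwounded epidermis at day 80, wound-only regions made up 62.2% on chromosome 19 (257 wound-only, 156 unwounded-only), 59.6% on chromosome 11, 59.3% on chromosome 5 and 59.0% on chromosome 9. They made up 44.9% on chromosome 16 (240 wound-only, 295 unwounded-only), 45.5% on chromosome X and 47.5% on chromosome 18. Chromosomes 19 and 11 hold 12.2 and 13.2 protein-coding genes per Mb and chromosomes 16 and X hold 7.19 and 5.66, but chromosome 7, with 14.0, stood at 48.3%, and chromosome 12, with 5.66, at 57.3%. The part of gene density in this was not tested.

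Among the 6 highest-scoring starts of each class, all 6 other lists held 4 wound-only and 6 unwounded-only ones. The wound-only exceptions were Kansl1 (score 326) and Rhot2 (score 223), which were in neither unwounded epidermis of day 0 nor the partial wound list of day 80. The wound-only starts of Tars2, a mitochondrial threonyl-tRNA synthetase (score 269), and Ubxn7, a ubiquitin adaptor (score 249), were held by all 6 other lists. The unwounded-only starts of Fam32a (score 310), Selenop, which encodes selenoprotein P (score 265), and Tubb2a, a beta-tubulin (score 259), were also held by all 6. All 6 other lists held 20.2% of wound-only starts (16.1 to 24.9%) and 18.5% of unwounded-only starts (14.6 to 22.9%), against 87.1% of shared starts.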
